A study of Mus musculus with 6 samples.

Results

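Insulin and insulin-like growth factor (IGF) signalling in the mouse hippocampus was described through 10 genes. They were the ligand gene Igf1, the receptor genes Igf1r, Igf2r and Insr, the adaptor genes Irs1 and Irs2, and the binding protein genes Igfbp3, Igfbp4, Igfbp5 and Igfbp7. The genes were chosen by symbol, and they made up 10 of the 16060 entries of the expression table. Each symbol had 1 entry, and none shared its values with another entry.

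Insulin and IGF1 act on receptor tyrosine kinases, which phosphorylate the adaptors IRS1 and IRS2 and through them reach PI3K, AKT and mTOR. Binding proteins (IGFBPs) hold IGFs outside the cell, and proteases that cleave the binding proteins set the IGFs free again. In the brain the pathway is known for its part in the growth and survival of neurons and in synaptic plasticity.

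Bulk RNA-seq was performed on the hippocampus of 3 Control mice and 3 mice treated with methamphetamine (MA), with 1 library per mouse. All were adult male C57BL/6 mice, as far as the labels and the study's methods state, and their age in weeks is not given in the sources used here. Control mice received saline by intraperitoneal injection, whereas MA mice received MA at 5 mg/kg in week 1, 10 mg/kg in week 2 and 15 mg/kg in week 3. According to the methods, both groups went through behavioral tests on day 22 and were then sacrificed, so that the tests preceded tissue collection in every mouse. The comparison of MA with Control asks how repeated MA changed hippocampal RNA levels.

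Levels are given as RPKM (reads per kilobase of transcript, scaled to the depth of the library), back-transformed from the deposited values, which were read as log2. Differences are log2 fold changes of MA against Control on the log2(RPKM + 1) scale, which understates the change of genes with low RPKM. The p-values are from limma, with Benjamini-Hochberg adjustment over the 13321 tested genes and a threshold of 0.05. They measure the spread between these mice, each with 1 library. An exact permutation test of 3 against 3 cannot give a p below 0.1. The read depth of the libraries is unknown.

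Each library labelled MA had a lower average correlation with its group than any Control library. Computed across the tested genes, Pearson's r between a library and the rest of its group averaged 0.991, 0.993 and 0.992 in Control replicates 1, 2 and 3, and 0.984, 0.985 and 0.978 in MA replicates 1, 2 and 3. These genes are not independent replicates. The averages of MA replicates 1 and 2 include their pairs with MA replicate 3, which had the lowest average. They do not show MA replicates 1 and 2 to be unlike each other. MA replicate 3 stood apart further, with 0 genes listed at 0 against 259 to 437 in the other libraries, and with the lowest limma quality weight, 0.194 against 0.937 to 2.45. Its long genes read low: the 1331 genes with at least 10098 exonic bases had a median deviation from the gene means of -0.17 on the log2 scale in this library, against -0.031 to 0.060 in the others. Its short genes read high, with a median deviation of 0.14 for the 1333 genes of at most 1719 exonic bases, against -0.081 to 0.047. Igf1r, with 16791 exonic bases, and Insr, with 13746, were among the long genes, and Igfbp7, with 1209, was among the short ones.

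Each direction given here is between libraries as they are labelled. The labels are taken as deposited, and whether they match the treatments could not be settled here. Arc, Fos, Egr1 and Nr4a1, genes that neurons switch on with activity, differed between the groups. No fixed list of such genes was tested. Arc measured 101, 74.2 and 73.6 RPKM in Control and 26.2, 20.1 and 22.3 RPKM in MA, without overlap, with a log2 fold change of -1.80 (limma adjusted p = 0.0181). Fos (-1.61), Egr1 (-1.46) and Nr4a1 (-1.45), like Arc picked with their values known, were also lower in the libraries labelled MA, with limma adjusted p-values of 0.0315, 0.0181 and 0.0244. The study's paper reports that, in general, MA raised Arc, Fos, Egr1 and Nr4a1, in RNA-seq and in qPCR. In the deposited libraries, taken as labelled, the direction was the opposite. An exchange of the labels of the groups was not tested, and it would turn the direction of every difference given here.

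Marker genes of neurons were compared between the groups. The summed RPKM of 6 markers listed for hippocampal neurons was 4363, 4164 and 4336 in the Control libraries and 4243, 4492 and 3832 in the MA libraries. Neurons outside the hippocampus express these genes too, so the sum cannot check the tissue label. Markers of hippocampal subfields and of the thalamus are given below. The most abundant of these markers was Nrgn, and 0 of the 6 passed an unadjusted p of 0.05 in limma.

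In the Control libraries the binding protein genes were the most abundant of the 10 genes, with the exception of Igfbp3. Igfbp7 led with 44.1 ± 8.93 RPKM (SD, n = 3), followed by Igfbp4 with 26.8 ± 4.39 and Igfbp5 with 24.5 ± 1.75. Irs2 came next with 9.52 ± 0.351 RPKM. Igf1r at 4.76 ± 0.384, Igfbp3 at 4.70 ± 0.322, Insr at 4.20 ± 0.218 and Igf2r at 3.22 ± 0.243 RPKM lay close together. The lowest were the ligand gene Igf1 with 1.45 ± 0.0618 RPKM and Irs1 with 0.510 ± 0.126 RPKM. Over all 6 libraries, neighbours in this order overlapped for Igfbp4 and Igfbp5, Igf1r and Igfbp3, Igfbp3 and Insr, Insr and Igf2r, and Igf1 and Irs1. No overlap was seen between Igfbp7 and Igfbp4, Igfbp5 and Irs2, Irs2 and Igf1r, or Igf2r and Igf1. Igfbp3, Igfbp4, Igfbp5 and Igfbp7 together held 79.2%, 82.0% and 81.3% of the summed RPKM of the 10 genes in the Control libraries, and 81.0%, 79.3% and 85.2% in the MA libraries.

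**Figure D1:**
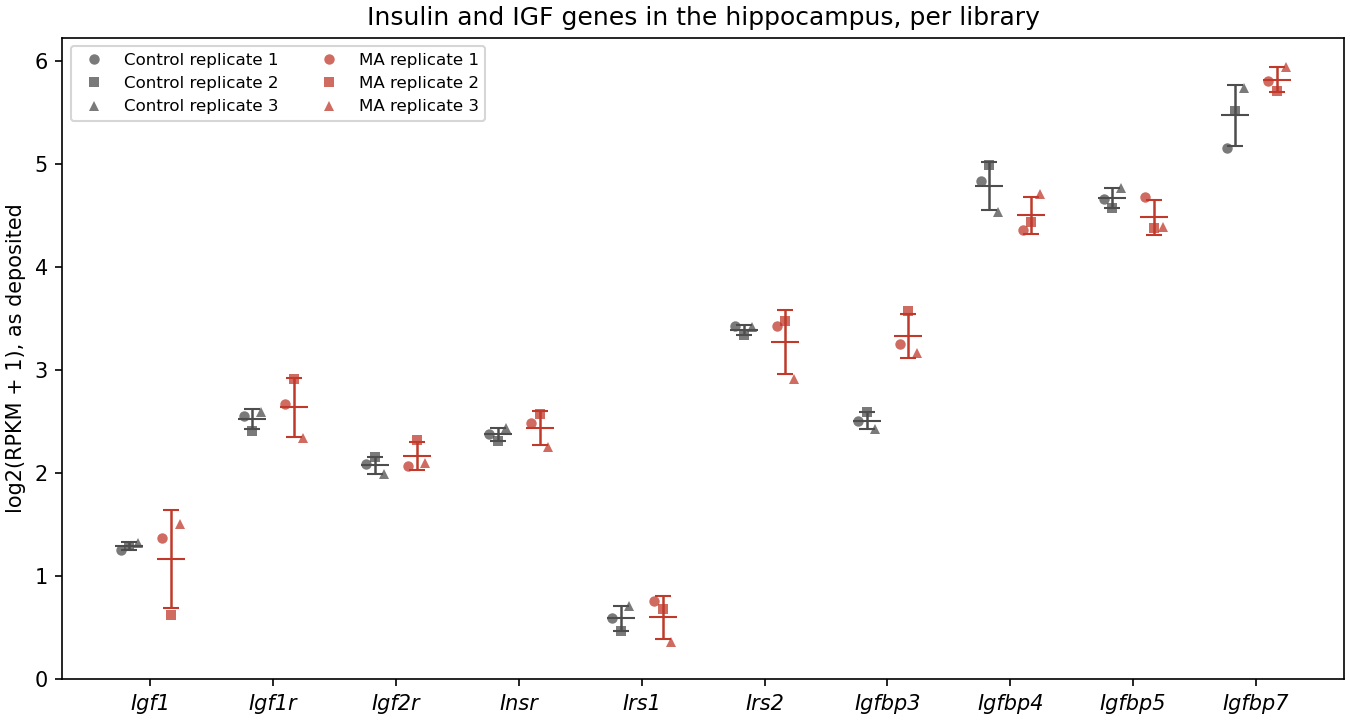
Level of the 10 insulin and IGF genes in each library, as log2(RPKM + 1) on the vertical axis, with Control in grey, MA in red, and bars for the mean and SD of 3 libraries. Every MA library lies above every Control library for Igfbp3, and the groups overlap for the other 9 genes.

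Between the groups, all 10 genes passed the filter on low values and were tested. In limma, 0 of the 10 passed an adjusted p of 0.05, against 0.263% of all tested genes, and 1 of the 10, Igfbp3, passed an unadjusted p of 0.05, against 10.4%. Igfbp3 was higher in MA, a direction that 4.99% of all tested genes took with an unadjusted p under 0.05. Igfbp3 was also the 1 gene of the 10 whose groups did not overlap, against 17.5% of all tested genes. Of the 10 genes, 6 had a higher mean in MA and 4 a lower mean, and the median of their log2 fold changes was 0.036. Over all tested genes 6296 were higher and 7025 lower, with a median of -0.010. Leaving out a library moved these counts. Without MA replicate 3, limma gave 1 of the 10 genes past the adjusted p (Igfbp3) and 2 past the unadjusted p (Igfbp3 and Igfbp4), against 1.93% and 23.3% of all tested genes. The groups then did not overlap for 5 of the 10 (Igf1r, Igfbp3, Igfbp4, Insr and Irs2), against 42.9%. Without Control replicate 3, 3 of the 10 passed the unadjusted p in limma (Igfbp3, Igfbp4 and Igfbp7), against 7.59% of all tested genes, and the same 3 did not overlap, against 25.4%. Without MA replicate 1, 2 of the 10 passed (Igfbp3 and Igfbp5), against 8.69%, and the same 2 did not overlap, against 25.6%. Without MA replicate 2, 3 of the 10 genes (Igf1, Igfbp3 and Igfbp7) did not overlap, against 24.7% of all tested genes.

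Igf1 (ENSMUSG00000020053), the gene of the IGF1 ligand, lies on the plus strand of chromosome 10 from 87858265 to 87937042 (GRCm38, GENCODE M21, as are all positions given here). It measured 1.38, 1.46 and 1.504 RPKM in Control replicates 1, 2 and 3, and 1.58, 0.538 and 1.85 RPKM in MA replicates 1, 2 and 3. MA replicate 2 lay below all the other libraries, whereas MA replicates 1 and 3 lay above all Control libraries. The log2 fold change was -0.12 (SE 0.22, 95% interval -0.65 to 0.40, limma adjusted p = 0.902), and without MA replicate 2 it was 0.15. The spread of Igf1 between MA libraries was wider than between Control libraries, with an SD of 0.693 against 0.0618 RPKM.

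The receptor genes showed no difference beyond the spread between mice. Igf1r (ENSMUSG00000005533, chromosome 7, 67952827 to 68233668, plus strand), which codes for the receptor kinase of IGF1, measured 4.89, 4.33 and 5.06 RPKM in Control and 5.35, 6.54 and 4.08 RPKM in MA. MA replicates 1 and 2 were above all Control libraries and MA replicate 3 was below them. Igf1r thus had a log2 fold change of 0.12 (SE 0.15, 95% interval -0.24 to 0.48, limma adjusted p = 0.849). It was 0.27 without MA replicate 3 and -0.017 without MA replicate 2. With sample quality weights the log2 fold change of Igf1r was 0.31 with a limma p of 0.0238.

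Insr (ENSMUSG00000005534, chromosome 8, 3122061 to 3279617, minus strand), the insulin receptor gene, measured 4.20, 3.98 and 4.41 RPKM in Control and 4.62, 4.96 and 3.76 RPKM in MA. As for Igf1r, MA replicates 1 and 2 were the highest libraries and MA replicate 3 the lowest. Insr had a log2 fold change of 0.06 (SE 0.12, 95% interval -0.21 to 0.33, limma adjusted p = 0.904). It was 0.16 without MA replicate 3 and -0.006 without MA replicate 2. Insulin and IGF1 receptors can form hybrids, and the ratio of their RNA was close to even in each library. Igf1r over Insr, in RPKM, was 1.16, 1.09 and 1.15 in Control and 1.16, 1.32 and 1.08 in MA (exact two-sided permutation p = 0.7).

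Igf2r (ENSMUSG00000023830, chromosome 17, 12682406 to 12769664, minus strand) codes for a receptor without kinase activity that takes IGF2 to the lysosome. It measured 3.25, 3.45 and 2.97 RPKM in Control and 3.20, 4.01 and 3.29 RPKM in MA. MA replicate 2 was the highest library and the other MA libraries lay within the Control range. Its log2 fold change was 0.09 (SE 0.11, 95% interval -0.17 to 0.35, limma adjusted p = 0.845).

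The adaptor genes also overlapped between the groups. Irs1 (ENSMUSG00000055980, chromosome 1, 82233101 to 82291416, minus strand) measured 0.507, 0.386 and 0.638 RPKM in Control and 0.696, 0.600 and 0.284 RPKM in MA. The highest and the lowest of the 6 values were both in MA libraries. For Irs1 the log2 fold change was 0.01 (SE 0.14, 95% interval -0.32 to 0.34, limma adjusted p = 0.992). It took the opposite sign in 6 of 15 alternatives. Irs1 shares 2822 exonic bases with Gm9747 on the opposite strand. Whether the counting used strand is not stated, so reads from the 2 genes cannot be told apart.

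Irs2 (ENSMUSG00000038894, chromosome 8, 10984681 to 11008458, minus strand), the more abundant of the adaptors, measured 9.76, 9.12 and 9.69 RPKM in Control and 9.80, 10.1 and 6.54 RPKM in MA. MA replicates 1 and 2 lay just above the Control libraries and MA replicate 3 well below them. Irs2 had a log2 fold change of -0.12 (SE 0.16, 95% interval -0.49 to 0.24, limma adjusted p = 0.848), and without MA replicate 3 it was 0.059. Irs2 shares 162 exonic bases with 9530052E02Rik on the opposite strand, and reads there cannot be told apart. The ratio of Irs2 to Irs1, in RPKM, was 19.3, 23.7 and 15.2 in Control and 14.1, 16.9 and 23.0 in MA (exact two-sided permutation p = 0.7).

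Of the 4 binding protein genes among the 10, Igfbp3 differed most between the groups. Igfbp3 (ENSMUSG00000020427, chromosome 11, 7206086 to 7213923, minus strand) codes for the main IGF carrier of blood plasma, which also acts in tissues. It measured 4.67, 5.04 and 4.40 RPKM in Control and 8.57, 10.9 and 8.01 RPKM in MA. All MA libraries were above all Control libraries, with MA replicate 2 the highest. The mean was 4.70 ± 0.322 RPKM in Control and 9.17 ± 1.56 RPKM in MA (SD, n = 3 each), a ratio of 1.95. The log2 fold change was 0.83 (SE 0.13, 95% interval 0.53 to 1.12). With a limma p of 0.00028 it ranked 55 among the 13321 tested genes, and the adjusted p of 0.0679 missed the threshold. The exact permutation p was 0.1, the smallest possible. Without MA replicate 3 the log2 fold change was 0.91 with a limma adjusted p of 0.0282. Over all alternatives the adjusted p ran from 0.00788 to 0.318, and the unadjusted p stayed under 0.05 in 16 of 16. Igfbp3 made up 5.11%, 4.87% and 4.17% of the summed RPKM of Igfbp3, Igfbp4, Igfbp5 and Igfbp7 in Control, and 7.94%, 10.7% and 7.02% in MA (exact two-sided permutation p = 0.1).

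Igfbp7 (ENSMUSG00000036256, chromosome 5, 77349240 to 77408041, minus strand) codes for a secreted protein of vessel walls that binds IGFs with low affinity. It measured 34.8, 44.7 and 52.6 RPKM in Control and 55.0, 51.2 and 60.8 RPKM in MA. MA replicate 2 lay below Control replicate 3, whereas the other MA libraries were above all Control libraries. Igfbp7 had a log2 fold change of 0.35 (SE 0.15, 95% interval -0.01 to 0.70), with a limma p of 0.0528, an adjusted p of 0.481 and an exact permutation p of 0.2. Without Control replicate 3 the log2 fold change was 0.48 with a limma p of 0.0122, and without Control replicate 1 it was 0.19 with a limma p of 0.163. Igfbp7 shares 85 exonic bases with Polr2b on the opposite strand, and their reads there cannot be told apart.

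Igfbp4 and Igfbp5, whose products are cleaved by IGFBP proteases, had lower means in MA. Igfbp4 (ENSMUSG00000017493, chromosome 11, 99041244 to 99054392, plus strand) measured 27.5, 30.9 and 22.2 RPKM in Control and 19.6, 20.7 and 25.2 RPKM in MA. Control replicate 3 and MA replicate 3 were on the other group's side, so that the groups overlapped. For Igfbp4 the log2 fold change was -0.28 (SE 0.14, 95% interval -0.62 to 0.06), with a limma p of 0.0899, an adjusted p of 0.563 and an exact permutation p of 0.2. Without Control replicate 3 it was -0.41 with a limma p of 0.0229, and without MA replicate 3 it was -0.39 with a limma p of 0.0260. The other fits with 1 library left out did not pass, from -0.18 without Control replicate 2 (limma p of 0.286) to -0.26 without Control replicate 1 (limma p of 0.189).

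Igfbp5 (ENSMUSG00000026185, chromosome 1, 72857932 to 72874884, minus strand) measured 24.3, 22.8 and 26.3 RPKM in Control and 24.7, 19.9 and 20.0 RPKM in MA. MA replicates 2 and 3 were below all Control libraries and MA replicate 1 was within their range. Igfbp5 had a log2 fold change of -0.18 (SE 0.11, 95% interval -0.44 to 0.07), with a limma p of 0.137, an adjusted p of 0.624 and an exact permutation p of 0.3. Without MA replicate 1 it was -0.28 with a limma p of 0.0293, and with any other library left out it did not pass, with a value of -0.13 without Control replicate 3 (limma p of 0.343) or MA replicate 2 (limma p of 0.332).

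Of the other 88 genes listed for the pathway, 85 were in the table and 76 passed the filter on low values. The insulin genes Ins1 and Ins2 and the carrier subunit gene Igfals were not among the entries used here. Of the 76 tested genes, 36 had a higher and 40 a lower mean in MA, and the median of their log2 fold changes was -0.0036. In limma, 0 passed an adjusted p of 0.05, whereas 7 passed an unadjusted p of 0.05 with a higher level in MA, against 4.99% of all tested genes, and 1 with a lower level, against 5.46%. In either direction, 8 genes past the unadjusted p were 10.5% of the 76, next to 10.4% of all tested genes. The groups did not overlap for 8 genes that were higher and 4 that were lower in MA, which was no larger a share than the 17.5% of all tested genes. Without MA replicate 3 the 8 genes past the unadjusted p became 19, or 25.0% of the 76, against 23.3% of all tested genes. The 0 past the adjusted p became 5 in that fit (6.58% against 1.93% of all tested genes) and 9 with sample quality weights (11.8% against 4.40%). Without MA replicate 2 the 8 became 4 (5.26% against 7.74%), and without MA replicate 1 or Control replicate 3 they became 5 (6.58% against 8.69% and 7.59%).

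Igf2 (ENSMUSG00000048583, chromosome 7, 142650766 to 142666816, minus strand), the other IGF ligand gene, measured 25.0, 23.1 and 29.2 RPKM in Control and 46.9, 62.4 and 84.4 RPKM in MA. All MA libraries were above all Control libraries, and MA replicate 3 was the highest. The ratio of the means was 2.51. On the log2 scale the fold change of Igf2 was 1.26 (SE 0.20, 95% interval 0.78 to 1.73), with a limma p of 0.000353, an adjusted p of 0.0783 and an exact permutation p of 0.1. Without MA replicate 3 it was 1.05 with a limma adjusted p of 0.0301, and over all alternatives the adjusted p ran from 0.00846 to 0.348. Igf2 was the more abundant ligand gene in each library. It shares 3596 exonic bases with Gm49394 on the same strand, a gene that had no entry in the table, and 98 with Igf2os on the opposite strand.

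Igfbp2 (ENSMUSG00000039323, chromosome 1, 72824503 to 72852474, plus strand), a binding protein gene that ends 5457 bases from Igfbp5, measured 23.0, 28.5 and 37.1 RPKM in Control and 51.8, 59.7 and 127 RPKM in MA. All MA libraries were above all Control libraries, with MA replicate 3 far above the rest. The ratio of the means was 2.70. On the log2 scale the fold change was 1.31 (SE 0.33, 95% interval 0.53 to 2.09), with a limma p of 0.00498, an adjusted p of 0.250 and an exact permutation p of 0.1. Without MA replicate 3 it was 0.92 with a limma adjusted p of 0.0645. Its neighbour Igfbp5 had a lower mean in MA, as given above. Igfbp3 lies 3539 bases from Igfbp1, which was under the filter with 0.0713 to 0.263 RPKM over the 6 libraries.

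Htra1, which codes for a secreted protease that cleaves IGF binding proteins, measured 102, 110 and 100 RPKM in Control and 127, 139 and 135 RPKM in MA. All MA libraries were higher than all Control libraries, and the spread within each group was small. Htra1 had a log2 fold change of 0.36 (SE 0.08, 95% interval 0.18 to 0.54), with a limma p of 0.00187, an adjusted p of 0.179 and an exact permutation p of 0.1. Igfbp6 gave a log2 fold change of 0.16 (95% interval -0.64 to 0.96, limma adjusted p = 0.916) and Igfbpl1 one of -0.06 (95% interval -0.69 to 0.57, limma adjusted p = 0.959). Among receptor-related genes, the log2 fold change was -0.07 for Sorcs1 (95% interval -0.40 to 0.26), -0.07 for Sort1 (95% interval -0.32 to 0.17) and 0.05 for Lrp1 (95% interval -0.16 to 0.25). Insrr, the gene of the insulin receptor-related receptor, was under the filter.

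**Figure D2:**
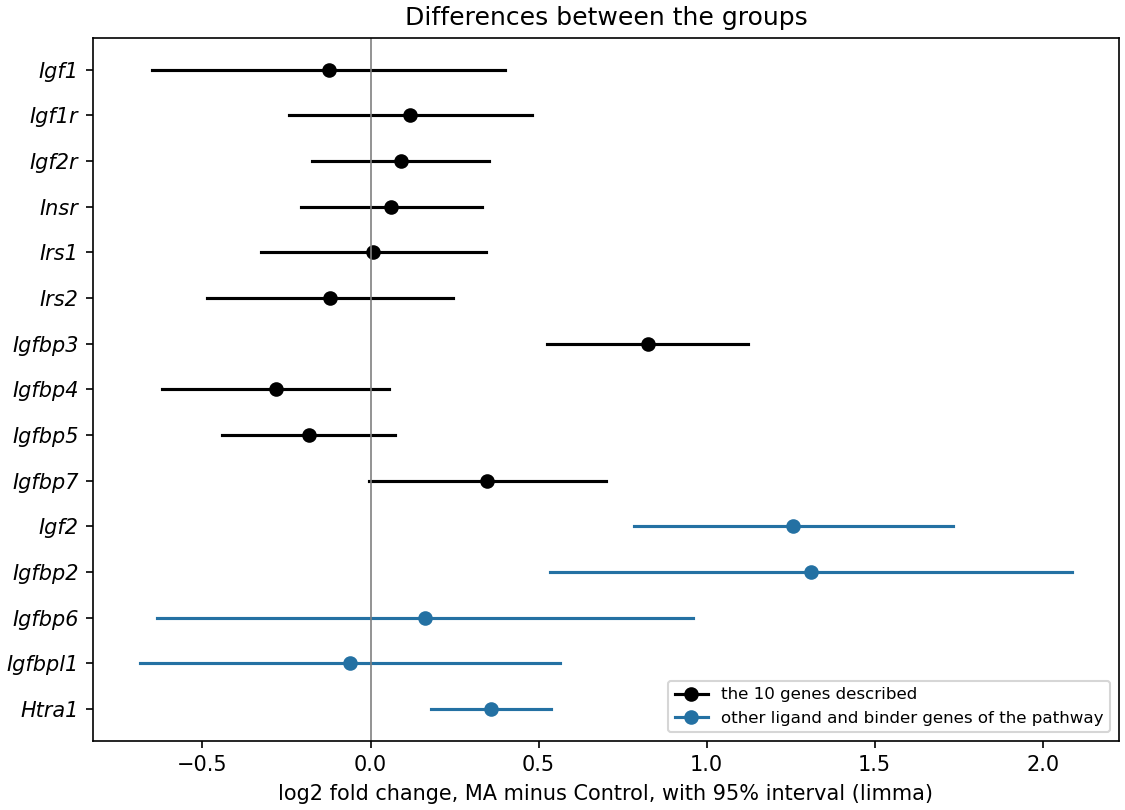
Log2 fold change of MA against Control on the horizontal axis, with 95% intervals from limma, for the 10 genes (black) and the tested genes among the other ligands and binders of the pathway (blue). The intervals of Igfbp3, Igf2, Igfbp2 and Htra1 lie above 0, and those of the other 11 genes include 0. Htra1, a protease gene, was listed with the binders.

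Inside the cell, 2 adaptor genes of 18 tested were higher in MA and 1 was lower at an unadjusted p under 0.05, directions taken by 4.99% and 5.46% of all tested genes. Shc2, an adaptor gene of receptor tyrosine kinases, measured 9.89, 8.98 and 9.93 RPKM in Control and 12.4, 12.7 and 12.6 RPKM in MA, without overlap. Its log2 fold change was 0.36 (SE 0.08, limma p = 0.00335, adjusted p = 0.219, exact permutation p = 0.1). Sh2b2, which codes for an adaptor that binds the insulin receptor, had a log2 fold change of 0.29 (SE 0.12, limma p = 0.0373, adjusted p = 0.442, exact permutation p = 0.1). Cblb, a ubiquitin ligase gene, had one of -0.23 (SE 0.09, limma p = 0.0408, adjusted p = 0.457, exact permutation p = 0.1). With 1 library left out, the limma p of Shc2 stayed under 0.05 in 6 of 6 fits, that of Sh2b2 in 2 and that of Cblb in 1. With a replicate block the limma p was 0.0220 for Shc2, 0.0661 for Sh2b2 and 0.118 for Cblb.

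Among the inhibitors, 2 of 13 tested genes were higher in MA at an unadjusted p under 0.05, against 4.99% of all tested genes. Socs2, the gene of a suppressor of cytokine signalling, had a log2 fold change of 0.46 (95% interval -0.07 to 0.98, limma adjusted p = 0.546) and did not pass the unadjusted p. It passed the adjusted limma p with sample quality weights and without MA replicate 3, and the unadjusted p with the replicate block and with the exonic length correction. Ptprf, a receptor tyrosine phosphatase gene, had a log2 fold change of 0.39 (SE 0.15, limma p = 0.0318, adjusted p = 0.426, exact permutation p = 0.1). MA replicates 1 and 2 gave 8.67 and 8.30 RPKM, whereas MA replicate 3, with 5.84 RPKM, lay next to Control replicate 3 with 5.80. Without MA replicate 3 its log2 fold change was 0.55 with a limma adjusted p of 0.0411, but with any other library left out the unadjusted limma p of Ptprf was between 0.0529 and 0.104, and with a replicate block it was 0.0579. Inpp5d, a lipid phosphatase gene that in the brain is known from microglia, had one of 0.32 (SE 0.12, limma p = 0.0263, adjusted p = 0.410, exact permutation p = 0.1). With 1 library left out, its limma p stayed under 0.05 in 3 of 6 fits, and without Control replicate 3 it was 0.1004. The 7 microglial markers gave a summed RPKM of 175, 186 and 182 in Control and 186, 182 and 178 in MA, with C1qa as the most abundant.

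In limma with the settings used for the values given here, no gene of the kinase branches passed an unadjusted p of 0.05, against 10.4% of all tested genes. For lists of 5 to 14 genes, a count of 0 was not tested against that share. The count was 0 of 12 for PI3K and AKT with a median log2 fold change of 0.011, 0 of 14 for mTOR with a median of 0.037, and 0 of 5 for FOXO and Sgk1 with a median of -0.058. It was also 0 of 5 for the listed proteases and their inhibitors, with a median of -0.085. That list does not hold the protease gene Htra1, which was listed with the binders and passed the unadjusted limma p, as given above. Some genes passed an unadjusted limma p of 0.05 under alternatives. These were Gsk3b, Pik3r1 and Rheb without MA replicate 3, Pik3r1 and Rheb with sample quality weights, Rheb with no filter, Sgk1 without Control replicate 2 and the protease inhibitor gene Stc2 without Control replicate 3. Of the IGF2 mRNA-binding protein genes, 1 was tested, Igf2bp3, and did not pass. Igf2bp2 was under the filter and passed the unadjusted p with no filter. It measured 0.435, 0.321 and 0.435 RPKM in Control and 0.252, 0.187 and 0.238 RPKM in MA, without overlap.

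Genes of the choroid plexus, the secretory epithelium of the ventricles, differed more between the groups than any of the 10 genes. Their 10 markers summed to 101, 217 and 478 RPKM in Control and to 1932, 2520 and 5308 RPKM in MA. All 10 were without overlap and higher in MA with an unadjusted limma p under 0.05, and 5 (Folr1, Kl, Clic6, Aqp1 and Enpp2) passed the adjusted p. The median log2 fold change of the list was 1.70. The most abundant was Ttr, the transthyretin gene, with 57.7, 166 and 410 RPKM in Control and 1744, 2254 and 5033 RPKM in MA. None of the 10 markers was listed at 0 in any library. Ttr made up 57.1%, 76.8% and 85.9% of the sum in Control and 90.3%, 89.5% and 94.8% in MA. Its value in MA replicate 3 was the highest value of the table, which all libraries share after the normalization between them, so that the sum in this library rests on that value. Without Ttr the other 9 markers, of which Enpp2 was the most abundant, summed to 43.3, 50.3 and 67.2 RPKM in Control and 188, 266 and 275 RPKM in MA. The highest library was MA replicate 3 for 6 of the 10 markers, MA replicate 2 for 3 (Folr1, Kl and Clic6) and MA replicate 1 for Prlr.

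Igf2 and Igfbp2 had their highest values in MA replicate 3. Relative to the Control mean, the marker sum was 7.29, 9.51 and 20.0 in MA replicates 1, 2 and 3, and 3.51, 4.95 and 5.12 without Ttr, while Igf2 was 1.82, 2.42 and 3.28 and Igfbp2 was 1.75, 2.02 and 4.32. Igfbp3 was 1.82, 2.33 and 1.70 on that scale, with its lowest MA value in MA replicate 3. Among the choroid plexus markers only Folr1, with 8.70, 16.9 and 6.68 RPKM in MA, had the same order of MA libraries as Igfbp3. Folr1 was picked with its values known, and 6 of the 10 markers were highest in MA replicate 3. In Control replicate 3, where the marker sum was 1.80 times the Control mean, or 1.25 times without Ttr, Igfbp3 was 0.936 and Igfbp7 was 1.19. The part of choroid plexus RNA in these differences was not tested. In bulk tissue, a change in the number of cells of a type and a change in RNA per cell cannot be told apart.

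**Figure D3:**
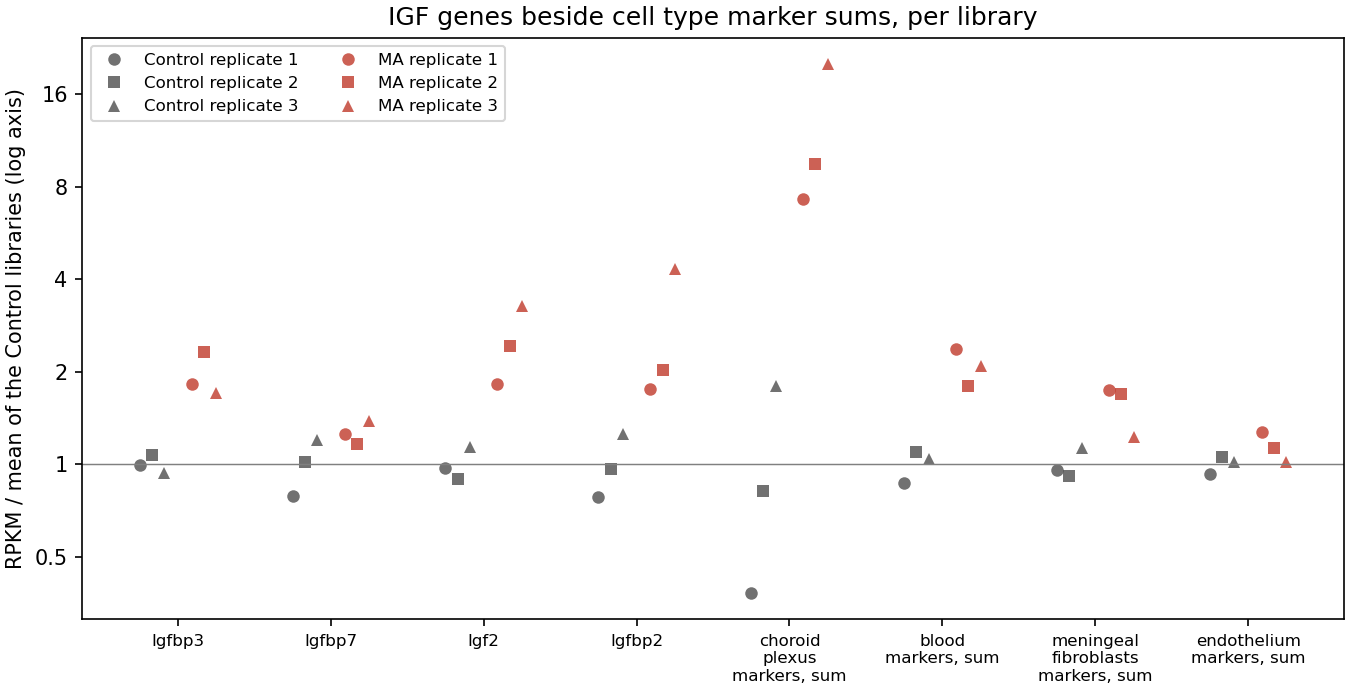
RPKM of Igfbp3, Igfbp7, Igf2 and Igfbp2 and summed RPKM of marker lists in each library, divided by the mean of the 3 Control libraries, on a log axis. The choroid plexus sum, most of it Ttr, spans 7.29 to 20.0 in MA, Igfbp3 spans 1.70 to 2.33, and the sum of blood markers spans 1.80 to 2.37.

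Red blood cell genes were also higher in MA. The 5 blood markers summed to 1599, 2024 and 1911 RPKM in Control and to 4378, 3319 and 3849 RPKM in MA, and the most abundant was Hba-a2. All 5 passed an unadjusted limma p of 0.05 and 3 (Hba-a1, Hba-a2 and Hbb-bs) the adjusted p, and none was listed at 0. MA replicate 1 held the most. Relative to the Control mean, the blood sum was 2.37, 1.80 and 2.09 in MA replicates 1, 2 and 3. On that scale Igfbp3 was 1.82, 2.33 and 1.70. The part of blood RNA in the difference of Igfbp3 was not tested.

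Vessels and meninges are other tissues in which IGF binding protein genes are known to be active. The 8 endothelial markers summed to 151, 172 and 166 RPKM in Control and 207, 184 and 166 RPKM in MA, with Ly6c1 the most abundant. All 8 had a higher mean in MA and the median of their log2 fold changes was 0.097. Of these, 2, Cldn5 and Slco1a4, passed an unadjusted limma p of 0.05. The 8 markers of pericytes and smooth muscle, with Vtn the most abundant, summed to 91.1, 94.1 and 99.5 RPKM in Control and 98.8, 96.1 and 99.2 RPKM in MA, and 0 of them passed.

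The 10 markers of meningeal fibroblasts summed to 25.8, 24.5 and 30.2 RPKM in Control and 46.7, 45.4 and 32.8 RPKM in MA. The most abundant was Dcn, which with Slc6a20a made 2 of 10 with an unadjusted limma p under 0.05 and a higher level in MA. The median log2 fold change of the list was 0.067. Dcn, with 5.81, 6.68 and 7.503 RPKM in Control and 23.4, 21.4 and 11.3 RPKM in MA, made up most of the difference in the sum. Without Dcn the other 9 markers summed to 19.9, 17.8 and 22.7 RPKM in Control and 23.3, 24.0 and 21.5 RPKM in MA, and the groups overlapped. The part of meningeal or vessel RNA in the values of Igfbp3 and Igfbp7 was not tested.

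Markers of the thalamus, which lies next to the hippocampus, summed to 41.2, 37.2 and 57.5 RPKM in Control and 113, 110 and 57.5 RPKM in MA. Of the 8 markers, of which Calb2 was the most abundant, 2 (Calb2 and Zic1) were higher and 1 (Rorb) lower in MA at an unadjusted limma p under 0.05. In all, 7 of the 8 had a higher mean in MA, and the median of their log2 fold changes was 0.49. The median log2 fold changes of the other marker lists were -0.13 for dentate gyrus, -0.077 for CA1, 0.0048 for CA2 and CA3, -0.11 for interneurons, -0.097 for astrocytes, -0.13 for oligodendrocytes, 0.12 for oligodendrocyte precursors, -0.099 for microglia and 0.15 for striatum. No marker of these lists passed the adjusted p in limma. At an unadjusted p under 0.05, 2 of 5 CA1 markers (Wfs1 and Pou3f1) and 1 of 6 astrocyte markers (Aqp4) were lower in MA, while 1 of 6 markers of CA2 and CA3 (Grik4) and 1 of 5 of oligodendrocyte precursors (Pdgfra) were higher.

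The profile of Igfbp3 over the 6 libraries was compared with that of each other tested gene, as the root mean square difference of log2 values centred on the gene's own mean. The closest was Angptl4, the gene of a secreted inhibitor of lipoprotein lipase, with a difference of 0.084. Its values on the log2(RPKM + 1) scale were 0.85, 0.87 and 0.95 in Control and 1.58, 2.01 and 1.48 in MA, and as for Igfbp3 the highest library was MA replicate 2 and the lowest of the MA libraries MA replicate 3. Sult1a1, a sulfotransferase gene, followed with 0.1203, and Col8a1, a collagen gene of vessel walls, with 0.127. Their log2 fold changes were 0.80 for Angptl4 (limma adjusted p = 0.141), 0.98 for Sult1a1 (limma adjusted p = 0.0315) and 0.74 for Col8a1 (limma adjusted p = 0.220). These genes were picked for closeness to Igfbp3 in the same libraries, so that their likeness to it is built into the choice.

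The genes closest to Igfbp7 over the 6 libraries were C77080 with a difference of 0.056, Galt, an enzyme gene of galactose metabolism, with 0.063, and Rasgrp2, the gene of a Ras and Rap exchange factor, with 0.066. All had their lowest value in Control replicate 1, as did Igfbp7, a likeness that is again built into the choice of these genes. Their log2 fold changes were 0.30 for C77080, 0.34 for Galt and 0.30 for Rasgrp2, with limma adjusted p-values of 0.582, 0.425 and 0.648.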

How the data were processed

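According to the study's methods, the authors used Hisat2 for the alignment of paired-end reads and featureCounts for gene counts, which they scaled by gene length and sequencing depth. The submitters' processing notes name Bowtie 0.12.2 and the builds mm8 and mm9, with no role given, and the annotation is not given in the sources used here. The deposited table holds RPKM values on a log scale, which was read here as log2. The base is not stated. Back-transformed from base 2 and multiplied by exonic length in kilobases, the values of a library summed to 1.78 to 1.88 times the total that RPKM of all reads would give, against at least 18.2 times for base e or base 10. The offset of 1 was inferred from lowest values of 0. All libraries share the highest value, 12.2976, so that a normalization between libraries had been applied that is not described. Sorted values of the libraries differ by at most 0.0285 above the median rank, and a shift of all genes may have been removed.

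The filter on low values asked for 0.5 RPKM or more in 3 or more of the 6 libraries. Groups were compared with limma 3.58.1 under R 4.3.3, using lmFit and eBayes with a trend and no covariate, and the fit was tested on simulated data. Single genes were also compared by exact two-sided permutation tests. Tables were handled with Python 3.11.15, pandas 2.3.3 and numpy 2.4.6. Positions and exonic lengths are from GENCODE M21 on GRCm38, matched by Ensembl identifier. Positions served for location and for overlaps between genes. Exonic lengths served for the reading of the log base, the deviations of long and short genes and the length correction. The 10 genes and all gene lists were chosen with earlier results of these data known. Named were the 10 genes, the listed ligands, receptors and binders, other listed pathway genes with an unadjusted p under 0.05, and the 3 genes closest in profile to each of the 2 genes with the smallest p. Furin, Gab1, Pcsk6 and Rheb, the remaining tested genes of the pathway list without overlap between groups, did not pass that p. Marker genes are named where they were the most abundant or made up a count of 5 or fewer, chosen after their values were seen. Alternatives were other scalings, pseudocounts, filters and limma settings, a replicate block, leaving out each library and, chosen after seeing the data, a correction for exonic length (lowess, span 0.3, 13302 genes).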

Additional observations from a re-analysis of the deposited data

How the results depend on the processing

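The direction of Igfbp3, Igfbp4, Igfbp5, Igfbp7, Igf2r, Igf2, Igfbp2 and Htra1 was the same under all alternatives run. The 35 genes past the adjusted p in limma became 3 with no filter, 20 with a minimum mean RPKM of 5, 586 with sample quality weights and 0 to 257 when 1 library was left out, the most without MA replicate 3. Sample quality weights gave 1 of the 10 insulin and IGF genes past the adjusted p (Igfbp3), 3 past the unadjusted p (Igf1r, Igfbp3 and Igfbp4) and 9 and 17 of 76 other pathway genes past the adjusted and unadjusted p, against 0, 1, 0 and 8, while 4.40% and 26.3% of all tested genes passed the adjusted and unadjusted p with these weights, against 0.263% and 10.4%. With 1 library left out these were 0 to 1, 1 to 3, 0 to 5 and 4 to 19, and the groups of 1 to 5 of the 10 genes did not overlap. The 5, without MA replicate 3, were Igf1r, Igfbp3, Igfbp4, Insr and Irs2. The exonic length correction gave 2 of the 10 past the unadjusted p (Igfbp3 and Igfbp7) and 3 without overlap (with Insr), against 11.6% and 18.8% of all tested genes. The replicate block gave 15 genes past the adjusted p and 2 of the 10 past the unadjusted p (Igfbp3 and Igfbp7), against 6.32% of all tested genes. Same-numbered libraries did not deviate together (r of -0.197, -0.242 and -0.337 across genes), no library was closest to its own number, and no source says that mice were paired. The sign of Irs1 turned with quantile normalization (-0.002) and pseudocounts of 0.1 (-0.008) and 0.01 (-0.022), and sample quality weights turned Irs2 (0.048), Sort1 (0.029) and Igfbp6 (-0.020). With 1 library left out, log2 fold changes on both sides of 0 were seen for Igf1 (-0.296 to 0.148), Igf1r (-0.017 to 0.268), Insr (-0.006 to 0.157), Irs1 (-0.072 to 0.128), Irs2 (-0.221 to 0.059), Sort1 (-0.136 to 0.030), Lrp1 (-0.022 to 0.111), Igfbp6 (-0.245 to 0.495) and Igfbpl1 (-0.295 to 0.170). Fewer libraries or genes enter some of these fits, and otherwise the cause was not tested. The ranges with 1 library left out are lowest and highest estimates, not confidence intervals. With 3 mice a group and unknown depth, a limma interval that includes 0 does not exclude a difference within it. How small a difference could be detected was not tested.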
